A study of Mus musculus with 15 samples.

Results

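The genes described here are 10 enzymes and cofactors that write or erase repressive chromatin marks: Ezh2, Eed and Suz12 of Polycomb repressive complex 2 (PRC2), the DNA methyltransferases Dnmt1, Dnmt3a and Dnmt3b with the Dnmt1 partner Uhrf1, and the 5-methylcytosine oxidases Tet1, Tet2 and Tet3. They were taken by symbol from a table of 51912 mouse genes, and all 10 matched 1 identifier each. Each was followed across 5 groups with 3 biological replicates apiece, 15 RNA-seq libraries in all. The libraries were made from wild-type B cells grown with 100 ng/ml IL-4, with no other treatment named in the labels.

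The D6 group is unsorted bulk culture, taken on day 6 after growth with 100 ng/ml IL-4 on 40LB feeder cells, a mouse fibroblast line made to express CD40 ligand and BAFF. For the other 4 groups, cells from the same kind of culture were removed from the feeders, kept in RPMI medium without stimulation for 2 more days and sorted. Those groups are IgE iGC and IgG1 iGC, cells that the labels set apart from plasma cells and that carry the named isotype, and IgE PC and IgG1 PC, the plasma cells. All 4 come from culture and not from tissue. By its title the series concerns how calcium signalling controls IgE plasma cells, and its design text says that profiles were compared between all samples.

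PRC2 places methyl groups on a lysine in the tail of histone H3: EZH2, or its homolog EZH1, is the catalytic subunit, EED binds the finished mark, and SUZ12 holds the complex together. DNMT1, brought to newly replicated DNA by UHRF1, copies DNA methylation to the daughter strand, whereas DNMT3A and DNMT3B can methylate sites anew, and the TET proteins oxidise 5-methylcytosine as a step towards its removal. In the B lineage EZH2 is abundant in dividing germinal centre B cells, where it holds back cell cycle inhibitors and plasma cell genes, and both DNA methylation and TET activity are remodelled as B cells become plasma cells.

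Library totals ranged from 17740876 (IgE iGC replicate 3) to 54067953 expected counts (IgG1 PC replicate 2). Levels below are in CPM, the usual unit of counts divided by library size, here with TMM scaling, which assumes that most genes do not change. Ighe averaged 6072 CPM in IgE iGC and 125634 in IgE PC, against 353 and 1800 in the IgG1 counterparts, and Ighg1 averaged 85554 CPM in IgG1 PC and 1821 in IgE PC, so the isotypes of the libraries matched their labels. The 8 plasma cell markers summed to 19465 to 21847 CPM in IgE PC, 10894 to 16304 in IgG1 PC and 665 to 1216 in all other libraries. The 6 germinal centre markers summed to 96.0 to 96.8 CPM in IgE PC, 137 to 187 in IgG1 PC and 555 to 774 in the iGC libraries. The plasma cell groups thus did not overlap on either sum. The library IgG1 PC replicate 1 stood apart: its counts differed from its 2 replicates with a chi-square per degree of freedom of 101 and 71.9, against 4.64 to 29.8 for the other 13 pairs of replicates. Its plasma cell markers summed to 16304 CPM, beside 11624 and 10894 in its 2 replicates. Its germinal centre markers summed to 137 CPM, beside 187 and 165. Results that rest on IgG1 PC are therefore also given without it where they change. Nothing in the labels names the animals or cultures behind the replicates, so p-values measure the spread between these libraries.

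The sequences below show the promoter stretches in which 4 of the 10 genes, Ezh2, Suz12, Dnmt1 and Uhrf1, carry a match to a consensus site of the E2F factors, which time transcription to the start of DNA replication. The search was chosen after it was seen that Ezh2, Dnmt1 and Uhrf1 were lower in IgE PC than in IgG1 PC, as were replication genes. The letters searched were TTTCCCGC, TTTCGCGC, TTTGCCGC and TTTGGCGC on either strand, in windows from 250 bases before to 50 bases after each annotated start (RefSeq, GRCm38.p6). Matches are in capitals and the strand shown is that of the gene.
Ezh2, chr6:47595009-47595038, minus strand, match starting at base 4 of the transcript: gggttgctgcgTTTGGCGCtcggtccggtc
Suz12, chr11:79992876-79992905, plus strand, match starting at position -219 from the start: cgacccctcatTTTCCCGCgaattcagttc
Dnmt1, chr9:20952824-20952853, minus strand, match on the opposite strand starting at position -219 from the start: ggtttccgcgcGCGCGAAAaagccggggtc
Dnmt1, chr9:20952574-20952603, minus strand, match starting at base 34 of the transcript: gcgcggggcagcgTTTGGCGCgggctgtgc
Uhrf1, chr17:56304117-56304146, plus strand, match starting at position -185 from the start: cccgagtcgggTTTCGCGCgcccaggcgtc
The Dnmt1 matches lie in 1 of its 3 annotated promoter windows and the Uhrf1 match in 1 of its 2. The windows of Eed, Dnmt3a, Dnmt3b, Tet1, Tet2 and Tet3 held none of these letters. Among all 32851 windows, 2.26% held a match, and among the 10549 genes that were both tested and had a window, 4.61% did. A match is a string of letters, and no factor binding was measured. The windows of the 10 genes held between 2 and 57 CpG dinucleotides in 300 bases, with 57 in that of Tet2, beside a median of 7 over all windows.

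Genes were compared with edgeR's quasi-likelihood test over 15692 genes that passed a filter on low counts, and a gene was called at a Benjamini-Hochberg adjusted p under 0.05. All 10 enzymes passed that filter. Between IgE PC and IgG1 PC, Uhrf1, Dnmt1 and Ezh2 were lower in IgE PC, and Suz12, Tet1 and Tet2 were higher. Thus 6 of 10 were called, beside 58.1% of all genes tested, a share near that of the background. Under total-count scaling the split of 3 higher and 3 lower became 1 higher, Tet1, and 5 lower, with Dnmt3a at -0.47 and Dnmt3b at -0.40 added (adjusted p 0.00579 and 0.00577). Cell type markers differed in the same comparison: 6 of 8 plasma cell markers were called higher in IgE PC and 0 lower, 1 of 6 germinal centre markers higher and 4 lower, and 0 of 7 B cell markers higher and 4 lower. The B cell markers summed to 3775 to 3982 CPM in IgE PC, beside 5077 to 5313 in IgG1 PC. The part of these markers in the enzyme results was not tested. The median log2 difference over the 10 was -0.01 and that over all genes was -0.05.

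**Figure D1:**
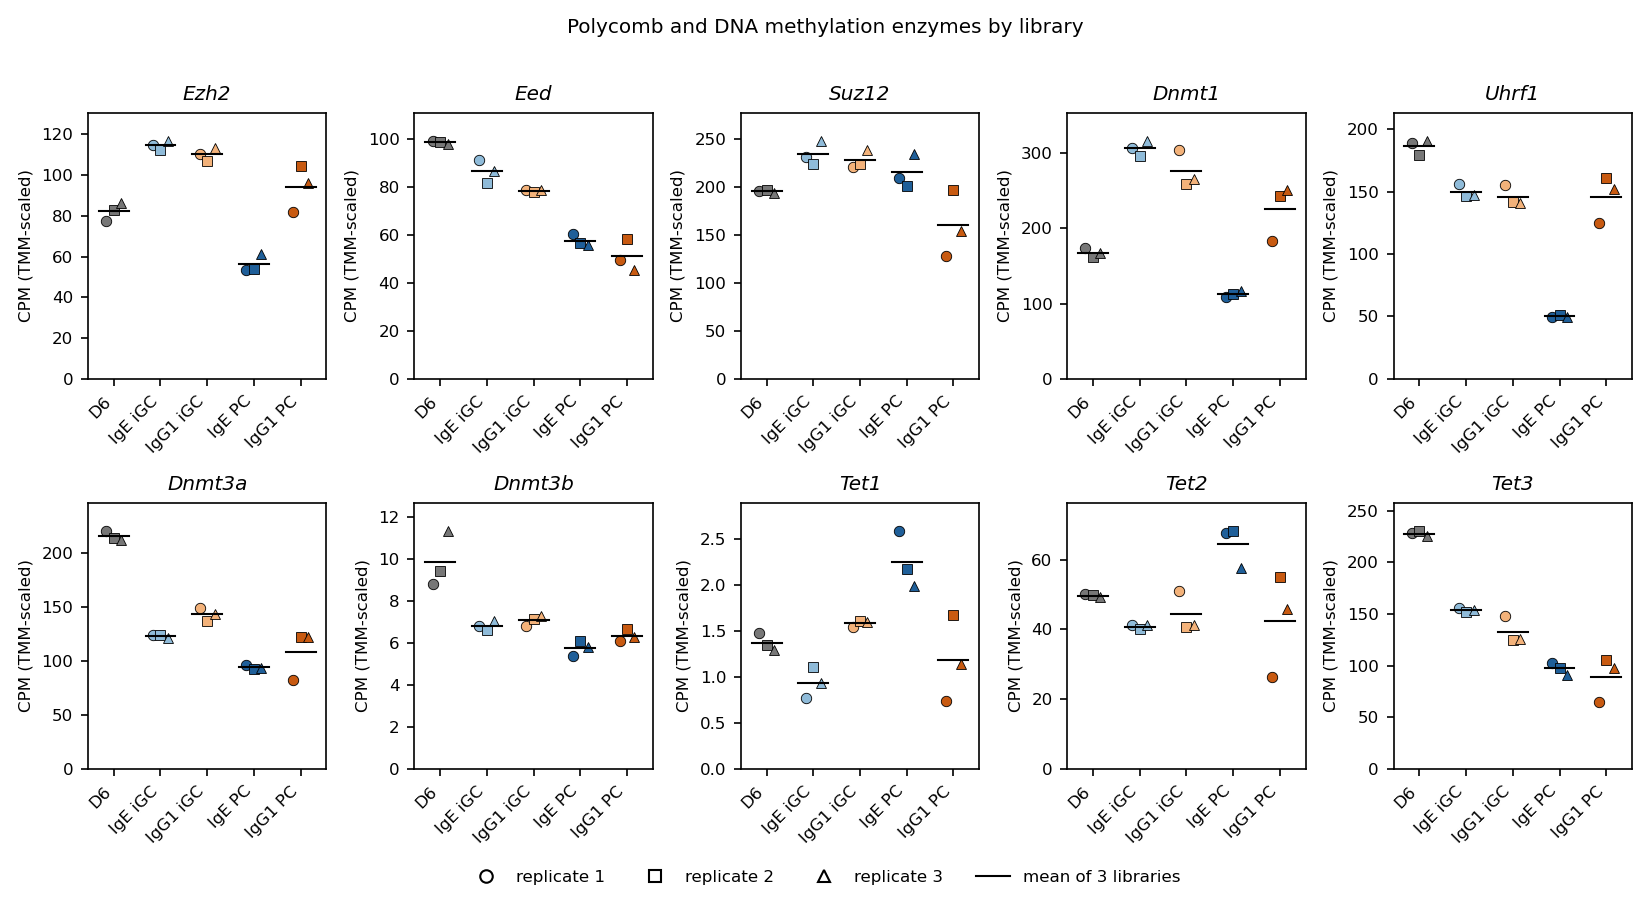
Level of each of the 10 genes (vertical axis, TMM-scaled CPM, linear from 0) in every library of the 5 groups (horizontal axis); points are libraries, shaped by replicate number, and bars are means of 3. Uhrf1, Dnmt1 and Ezh2 in the IgE PC libraries lie below every other library, and IgG1 PC replicate 1 is the lowest IgG1 PC library for 9 of the 10 genes, Eed being the exception.

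Gene positions below are those of GENCODE vM21 on GRCm38. Uhrf1 (chr17:56303321-56323486), which recruits DNMT1 to hemimethylated DNA, showed the largest difference of the 10 between the plasma cells. It stood at 49.2, 51.2 and 49.4 CPM in the 3 IgE PC libraries and at 125, 161 and 152 CPM in the 3 IgG1 PC libraries. The IgE PC libraries were the lowest of all 15, and the other 4 groups lay between 125 and 190 CPM. The fitted log2 difference was -1.55 (SE 0.08), 2.92-fold lower, with an edgeR adjusted p of 7.49e-10. Uhrf1 was 3.00-fold lower in IgE PC than in IgE iGC, whose libraries held 146 to 156 CPM (log2 -1.59, SE 0.08, edgeR adjusted p 6.50e-11). Between IgG1 PC and IgG1 iGC the means were 146 ± 18.8 and 146 ± 8.32 CPM (SD, n = 3 each), with a fitted log2 difference of -0.00 (SE 0.08). The difference between the 2 changes, called the interaction below, was -1.59 (SE 0.11, edgeR adjusted p 8.76e-08).

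Dnmt1 (chr9:20907209-20959888), the maintenance methyltransferase, stood at 109, 113 and 117 CPM in IgE PC, against 183, 242 and 251 CPM in IgG1 PC. The 2 groups did not overlap, and the IgE PC values were again the lowest of all 15 libraries. Dnmt1 was 1.99-fold lower in IgE PC than in IgG1 PC (log2 -0.99, SE 0.10, edgeR adjusted p 4.81e-07). Its highest levels were in the iGC groups, with 307, 296 and 315 CPM in IgE iGC and 304, 258 and 265 CPM in IgG1 iGC. The fall from iGC to PC was 2.70-fold in IgE (log2 -1.43, SE 0.10) and 1.22-fold in IgG1 (log2 -0.29, SE 0.09). Without IgG1 PC replicate 1 the log2 change in IgG1 was -0.16. The interaction was -1.14 (SE 0.13, edgeR adjusted p 1.04e-05).

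Dnmt3a and Dnmt3b, the de novo methyltransferases, followed another order. Dnmt3a (chr12:3806007-3914443) held 220, 214 and 213 CPM at D6, above all other libraries, whose highest was 149 CPM in IgG1 iGC. It averaged 94.1 ± 1.58 CPM in IgE PC, beside 109 ± 23.0 CPM in IgG1 PC (SD, n = 3), ranges that overlapped, and the log2 difference of -0.21 (SE 0.11) was not called. Without IgG1 PC replicate 1, which held 82.0 CPM beside 122 in both other libraries, the difference was -0.37 and the edgeR adjusted p was 2.34e-06. Dnmt3a fell from iGC to PC in both isotypes, by 0.39 (SE 0.11) in IgE and by 0.40 (SE 0.11) in IgG1 on the log2 scale, and the interaction was 0.01 (SE 0.15). Without IgG1 PC replicate 1 the change in IgG1 was -0.24 (adjusted p 3.06e-04). Dnmt3b (chr2:153649450-153687730) was scarce, at 5.40 to 11.3 CPM in all libraries, from 136 to 446 counts. Its fall from iGC to PC in IgE, -0.24 (SE 0.10), had an edgeR adjusted p of 0.0498 and was called in 3 of 12 alternative fits.

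Dnmt1 and Dnmt3a took different courses, and their ratio differed between groups. On the TPM scale, which corrects for transcript length, the Dnmt1 to Dnmt3a ratio was 0.695 to 0.746 at D6 and 2.27 to 2.55 in IgE iGC. It was 1.13 to 1.24 in IgE PC and 1.84 to 2.43 in IgG1 PC, so the 2 plasma cell groups did not overlap. Dnmt3a TPM was 9.23 to 20.9 times that of Dnmt3b over the 15 libraries.

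Ezh2 (chr6:47530139-47595341), the PRC2 methyltransferase, stood at 53.4, 54.2 and 61.4 CPM in IgE PC, against 82.0, 104 and 96.0 CPM in IgG1 PC. No IgE PC library reached the lowest library of any other group, which was 77.5 CPM at D6. Ezh2 was 1.67-fold lower in IgE PC than in IgG1 PC (log2 -0.74, SE 0.08, edgeR adjusted p 1.24e-06). From iGC to PC it fell 2.03-fold in IgE (log2 -1.02, SE 0.08, edgeR adjusted p 1.30e-08), where the IgE iGC libraries held 112 to 117 CPM. In IgG1 the fall was 1.17-fold (log2 -0.23, SE 0.08, edgeR adjusted p 0.0201), and without IgG1 PC replicate 1 it was -0.14 with an adjusted p of 0.0677. The interaction was -0.80 (SE 0.11, edgeR adjusted p 4.53e-05).

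Suz12 and Eed, the other core subunits, took other courses than Ezh2. Suz12 (chr11:79993106-80034123) held 209, 201 and 235 CPM in IgE PC, against 128, 197 and 154 CPM in IgG1 PC. The groups did not overlap in CPM, though the nearest libraries were close. In the deposited TPM they did overlap, at 50.87, 48.05 and 52.32 in IgE PC and 31.74, 57.55 and 45.77 in IgG1 PC. Suz12 was 1.34-fold higher in IgE PC (log2 0.43, SE 0.11, edgeR adjusted p 0.00438), a call made in 10 of 12 alternative fits. Its change from iGC to PC in IgE, -0.12 (SE 0.11), was not called, and it fell in IgG1 by 0.51 (SE 0.11) on the log2 scale. The interaction of 0.39 (SE 0.16) had an edgeR adjusted p of 0.0623. Without IgG1 PC replicate 1 the Suz12 difference between the plasma cells was 0.29 (edgeR adjusted p 0.00975). The change in IgG1 was then -0.37 and the interaction 0.25 (edgeR adjusted p 0.0931). Eed (chr7:89954654-89980983), the subunit that reads the mark, fell from iGC to PC in both isotypes by near amounts, log2 -0.59 in IgE and -0.62 in IgG1 (SE 0.07 each). It stood at 55.7 to 60.3 CPM in IgE PC, beside 45.5 to 58.2 CPM in IgG1 PC, which overlapped.

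Within PRC2 the ratios of the core subunits in IgE PC stood apart from those in IgG1 PC. The Suz12 to Ezh2 ratio of TPM was 1.88, 1.89 and 1.76 in the IgE PC libraries and lay between 0.677 and 1.08 in the other 12. The Eed to Ezh2 ratio was 1.32 to 1.68 in IgE PC and at most 0.876 in IgG1 PC, the lowest of the 5 groups. D6, at 1.34 to 1.48, overlapped IgE PC, and the iGC libraries held 0.940 to 1.10 in IgE and 1.10 to 1.28 in IgG1. Ezh1, the alternative catalytic subunit, held 65.4 ± 0.522 CPM in IgE PC, beside 54.3 ± 2.03 in IgG1 PC, a log2 difference of 0.27 (SE 0.05) that was 0.02 when libraries were scaled by total count. The Ezh2 to Ezh1 ratio of TPM was 1.59, 1.501 and 1.93 in IgE PC and 3.66, 3.95 and 3.45 in IgG1 PC. In log2 units the means were 0.73 ± 0.19 and 1.88 ± 0.10 (SD, n = 3), a difference of -1.15 with an exact two-sided permutation p of 0.1, the smallest that 3 libraries against 3 can give. Against IgE iGC, at 1.88 ± 0.05, the difference in IgE PC was also -1.15 (exact permutation p 0.1). IgG1 PC differed from IgG1 iGC by 0.03, with an exact permutation p of 0.7, and D6 had the highest ratios, at 6.61 to 7.41.

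**Figure D2:**
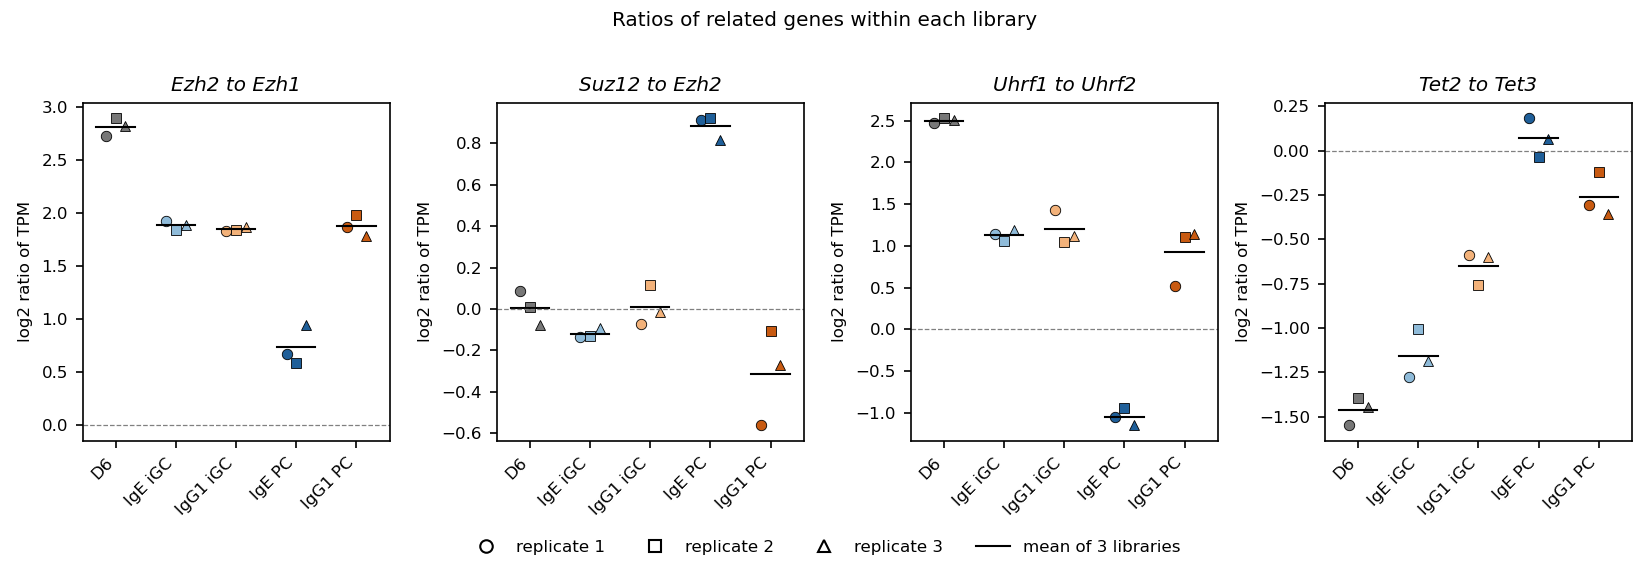
Ratio of 2 related genes within each library, as log2 of the TPM ratio (vertical axis; the dashed line marks equal TPM), for the 5 groups (horizontal axis); points are libraries, shaped by replicate number, and bars are means of 3. In IgE PC the Ezh2 to Ezh1 ratio is the lowest of the 5 groups, the Suz12 to Ezh2 ratio the highest, and the Uhrf1 to Uhrf2 ratio lies below 0, at 0.452 to 0.521 unlogged.

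Uhrf2, a homolog of Uhrf1, held 108 ± 6.28 CPM in IgE PC, beside 85.7 ± 4.31 in IgG1 PC (SD, n = 3), a difference that total-count scaling brought from 0.34 to 0.09 in log2 and out of the calls. The Uhrf1 to Uhrf2 ratio of TPM was 0.483, 0.521 and 0.452 in IgE PC and 1.43, 2.15 and 2.22 in IgG1 PC. It was between 2.07 and 2.70 in the iGC libraries and between 5.54 and 5.76 at D6. IgE PC was thus the 1 group in which Uhrf2 exceeded Uhrf1 in TPM, in 3 of 3 libraries.

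Among the TET genes, Tet1 (chr10:62804570-62908996) was close to the detection limit, with 18 to 89 counts per library. It stood at 2.58, 2.18 and 1.99 CPM in IgE PC, against 0.735, 1.68 and 1.14 CPM in IgG1 PC. These groups did not overlap in CPM, and the log2 difference was 0.90 (SE 0.24, edgeR adjusted p 0.00557). Without IgG1 PC replicate 1 it was 0.67 (edgeR adjusted p 0.0176). In the deposited TPM these groups did overlap, at 0.20, 0.64 and 0.25 in IgE PC and 0.33, 0.26 and 0.33 in IgG1 PC. Tet1 rose from iGC to PC in IgE by 1.27 (SE 0.26), whereas in IgG1 the fitted change was -0.39 (SE 0.25) and not called, or -0.16 (adjusted p 0.563) without IgG1 PC replicate 1. The interaction was 1.65 (SE 0.36, edgeR adjusted p 0.00167), on levels below 3 CPM.

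Tet2 (chr3:133463679-133545139) held 67.7, 68.1 and 57.7 CPM in IgE PC, against 26.5, 55.1 and 45.9 CPM in IgG1 PC, where replicate 1 was the lowest of all 15 libraries. The log2 difference was 0.59 (SE 0.18, edgeR adjusted p 0.0133). It was 0.33 with an adjusted p of 0.172 under total-count scaling, which moved the median of all genes in the same comparison from -0.05 to -0.30. Without IgG1 PC replicate 1 it was 0.35 (adjusted p 0.00611). The rise from IgE iGC, at 40.0 to 41.3 CPM, to IgE PC was 1.58-fold (log2 0.66, SE 0.19, edgeR adjusted p 0.00641). The deposited TPM showed no such rise, with 11.15, 13.6 and 12.77 in IgE iGC and 11.76, 11.98 and 9.71 in IgE PC. IgG1 PC, at 4.6, 11.78 and 9.67 TPM, overlapped IgE PC. The interaction of 0.71 (SE 0.26, edgeR adjusted p 0.0414) was called in 6 of 18 alternative fits, and without IgG1 PC replicate 1 it was 0.47 (adjusted p 0.00904). Tet3 (chr6:83362373-83459084) moved the other way and in both isotypes, falling from iGC to PC by 0.66 (SE 0.13) in IgE and by 0.57 (SE 0.13) in IgG1 on the log2 scale. Without IgG1 PC replicate 1 the Tet3 change in IgG1 was -0.39 (edgeR adjusted p 1.57e-04) and the interaction -0.27 (edgeR adjusted p 0.0242). Tet3 held 91.4 to 103 CPM in IgE PC, beside 64.5 to 105 CPM in IgG1 PC, and those groups overlapped.

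The share of each gene in the summed TPM of the 3 TET genes was also compared. Tet2 made up 26.4% ± 1.07 at D6, 30.8% ± 1.96 in IgE iGC, 38.5% ± 1.66 in IgG1 iGC, 44.6% ± 2.44 in IgG1 PC and 50.4% ± 2.32 in IgE PC (SD, n = 3 each). The ranges of these 5 groups did not overlap. Mean Tet2 TPM was 12.51 in IgE iGC and 11.15 in IgE PC, while mean Tet3 TPM was 27.90 and 10.65. The larger Tet2 share in IgE PC thus went with less Tet3 TPM and not with more Tet2 TPM. Tet1 made up 1.59% ± 0.872 in IgE PC and 1.87% ± 1.08 in IgG1 PC (SD, n = 3 each), shares that overlapped. TPM keeps no depth, so no interval for counting error is given for these shares.

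**Figure D3:**
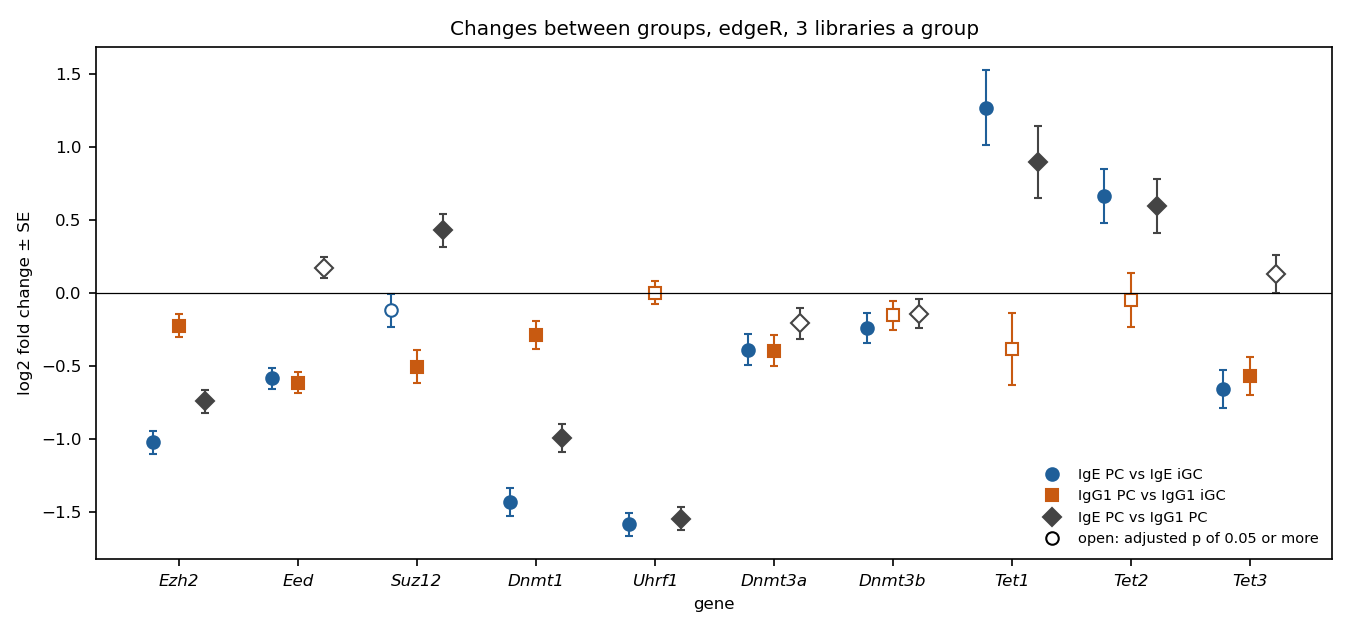
Fitted log2 fold change with its SE (vertical axis) of the 10 genes (horizontal axis) from iGC to PC in each isotype and between the plasma cells of the 2 isotypes, 3 libraries a group; filled symbols have an edgeR adjusted p under 0.05. Uhrf1, Dnmt1 and Ezh2 fall further in IgE than in IgG1, and Tet1 and Tet2 rise in IgE with open symbols in IgG1. Eed, Dnmt3a and Tet3 fall by similar amounts in both with all libraries. Without IgG1 PC replicate 1, which is not drawn separately, the IgG1 changes of Dnmt3a and Tet3 are -0.24 and -0.39.

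Counted over the 10 genes, the change from iGC to PC was called up for 2 and down for 7 in IgE, beside 64.1% of all genes called. In IgG1 it was called up for 0 and down for 6, beside 59.1% of all genes. Under total-count scaling 8 were called down in IgG1, with Dnmt3b at -0.39 (adjusted p 0.00578) and Uhrf1 at -0.23 (adjusted p 0.0491) added. Under that scaling 10066 of 15692 genes were called in IgG1, 3226 of them up. In the interaction 2 were called up and 3 down, beside 42.9% of all genes, so the share of enzymes called was near the background there too. Without IgG1 PC replicate 1 the interaction was called for 2 up and 5 down, with Dnmt3a at -0.16 (adjusted p 0.0411) and Tet3 at -0.27 (adjusted p 0.0242) added. In that fit the interaction was called for 7350 of 16090 genes, 3520 of them up. Between the iGC cells of the 2 isotypes none of the 10 was called by the main edgeR fit or DESeq2, and at an unadjusted edgeR p under 0.05 there was 1, Tet1. Of all genes, 3.87% were called there. The largest fitted difference there was that of Tet1, -0.76 (SE 0.26), with 0.773 to 1.11 CPM in IgE iGC and 1.54 to 1.61 CPM in IgG1 iGC. Dnmt3a, at -0.22 (SE 0.11) in the main fit, was called in 1 of 12 alternative fits, that with only the groups compared. These comparisons share libraries with one another, so their values are given side by side and were not correlated.

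Relative to the day 6 culture, both iGC groups had more Dnmt1 and Ezh2 and less of 5 other enzymes. Dnmt1 was 1.82-fold higher in IgE iGC and 1.65-fold higher in IgG1 iGC than the 162 to 174 CPM of D6, and Ezh2 was 1.39-fold and 1.34-fold higher. Uhrf1, Eed, Dnmt3a, Dnmt3b and Tet3 were lower in both iGC groups, Dnmt3a by 0.81 and 0.59 and Tet3 by 0.57 and 0.78 on the log2 scale. Eed in IgE iGC, -0.19 (SE 0.07, edgeR adjusted p 0.0314), was called in 5 of 12 alternative fits. Of the 10 genes, 3 were called up and 5 down in IgE iGC, beside 69.1% of all genes, and 2 up and 5 down in IgG1 iGC, beside 68.4%. In IgE PC 1 was up and 7 down, beside 76.4% of all genes, and in IgG1 PC 2 were up and 6 down, beside 71.9%. Of those 2, Dnmt1 (log2 0.43, SE 0.10) was not called under total-count scaling, at 0.15 (adjusted p 0.232). Of those 6, Suz12 (-0.29, SE 0.11) was called in 4 of 12 alternative fits and was -0.14 (adjusted p 0.151) without IgG1 PC replicate 1. The higher Ezh2 in IgG1 PC, log2 0.20 (SE 0.08), was -0.080 under total-count scaling, and the higher Suz12 in IgE iGC, 0.26 (SE 0.11, edgeR adjusted p 0.0489), was called in 2 of 12 alternative fits. The widest of these was Uhrf1 in IgE PC, 3.73-fold below D6 (log2 -1.90, SE 0.08), while in IgG1 PC it was 1.27-fold below. D6 was unsorted and lay on feeders, so sorting, day and feeder removal cannot be told apart in these comparisons. In such bulk libraries fewer cells of a type and less RNA per cell cannot be told apart either.

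The 3 isotype genes summed to between 72067 and 138463 CPM in the PC libraries and to at most 7886 CPM elsewhere, and the TMM factors were 0.764 to 0.8005 in IgE PC, 0.876 to 0.972 in IgG1 PC and 1.08 to 1.15 elsewhere. Under total-count scaling the calls between IgE PC and IgG1 PC split into 2272 higher of 9537, in place of 4303 higher of 9119. From iGC to PC they split into 2651 higher of 11394 in place of 4788 of 10058 in IgE, and into 3226 of 10066 in place of 4720 of 9273 in IgG1. In the interaction they split into 1542 of 7145 in place of 3101 of 6733, in IgE PC against D6 into 3311 of 12343 in place of 5792 of 11983, and in IgG1 PC against D6 into 3964 of 11334 in place of 5636 of 11281. Between the plasma cells Uhrf1, Dnmt1 and Ezh2 kept their direction and call, with Uhrf1 at -1.81, Dnmt1 at -1.25 and Ezh2 at -1.001, while Suz12 was 0.17 (adjusted p 0.273). From iGC to PC in IgE the median of all genes moved from -0.08 to -0.55 under that scaling, Suz12 became a called fall of 0.59 on the log2 scale, and the rise of Tet2 was 0.19 and no longer called.

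The other genes of these pathways give the setting. Of 11 further PRC2 subunits and H3K27 demethylases, all tested, 4 were called higher and 4 lower in IgE PC than in IgG1 PC, with a median log2 difference of 0.08. Of all genes, 27.4% were called higher and 30.7% lower in that comparison. The H3K27 demethylases Kdm6a and Kdm6b were 1.86-fold and 1.80-fold higher (log2 0.90, SE 0.09, and 0.85, SE 0.10). Kdm6a held 185 ± 9.51 CPM in IgE PC, beside 99.4 ± 17.7 in IgG1 PC, and Kdm6b 44.1 ± 5.02 and 24.5 ± 1.01 (SD, n = 3 each). The PRC2 accessory subunits Epop and Phf19 were lower, by 1.11 (SE 0.11) and 0.88 (SE 0.09) on the log2 scale. In IgE, Phf19 fell 4.43-fold from iGC to PC, from 48.8 ± 0.974 to 11.03 ± 1.61 CPM (edgeR adjusted p 1.22e-11), and in IgG1 it fell 1.67-fold. On the whole list 3 rose and 6 fell from iGC to PC in IgE, and 0 rose and 6 fell in IgG1. Of all genes, 30.5% were called higher and 33.6% lower in IgE, and 30.1% higher and 29% lower in IgG1.

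Of 25 genes of PRC1, the complex that ubiquitinates histone H2A, and of its opposing deubiquitinase, all tested, 9 were called higher and 5 lower in IgE PC than in IgG1 PC. The median log2 difference was 0.14, and under total-count scaling the counts were 3 higher and 8 lower with a median of -0.11. Of all genes, 27.4% were called higher and 30.7% lower in this comparison under TMM scaling. Bmi1, a RING finger subunit of PRC1, held 106 ± 15.3 CPM in IgE PC, beside 44.1 ± 9.50 in IgG1 PC (log2 1.26, SE 0.12). It rose from iGC to PC in IgE by 0.90 (SE 0.12), while its change in IgG1, -0.30 (SE 0.12), had an edgeR adjusted p of 0.0501. That change was called by DESeq2 (-0.32, adjusted p 0.0366) and under total-count scaling (-0.52, adjusted p 0.00335), and was -0.17 (adjusted p 0.216) without IgG1 PC replicate 1. On the whole list 9 rose and 9 fell from iGC to PC in IgE (4 and 17 under total-count scaling), and 6 rose and 11 fell in IgG1. Under TMM scaling 64.1% of all genes were called in IgE and 59.1% in IgG1.

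Of 21 further DNA methylation genes, all tested, 10 were called higher and 3 lower in IgE PC than in IgG1 PC, with a median log2 difference of 0.22. Under total-count scaling these became 4 higher and 8 lower, with a median of -0.03. Of all genes, 27.4% were called higher and 30.7% lower in this comparison under TMM scaling. Gadd45a, a stress-induced gene linked to DNA demethylation, was 2.36-fold higher (log2 1.24, SE 0.09) at 42.3 ± 4.24 against 18.0 ± 2.25 CPM. Tdg, the glycosylase that excises oxidised methylcytosine, differed by 0.39 (SE 0.05), and this call was lost under total-count scaling, at 0.14 (adjusted p 0.0509). Hells, a chromatin remodeller needed for DNA methylation, was lower by 0.84 (SE 0.19), with 23.2 ± 1.99 CPM in IgE PC, beside 41.4 ± 15.8 in IgG1 PC. The methyl-CpG binding gene Mbd1 rose from iGC to PC in IgE by 1.35 (SE 0.06), from 53.7 ± 2.02 to 137 ± 2.10 CPM. In IgG1 the largest named rise on this list was that of Gadd45b, by 1.51 (SE 0.20). On the whole list 10 rose and 7 fell in IgE (4 and 10 under total-count scaling), and 8 rose and 8 fell in IgG1. Under TMM scaling 64.1% of all genes were called in IgE and 59.1% in IgG1. Between the iGC groups, where 3.87% of all genes were called, 1 PRC2 gene was called higher and 1 lower in IgE. There 1 PRC1 gene was called higher and 0 lower, and 2 DNA methylation genes higher and 0 lower. The named ones were Phf19 (log2 0.54), Mbd4 (0.51) and Cbx6 (0.30), higher in IgE iGC, and Jarid2 (-0.34), lower there but not called under total-count scaling.

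**Figure D4:**
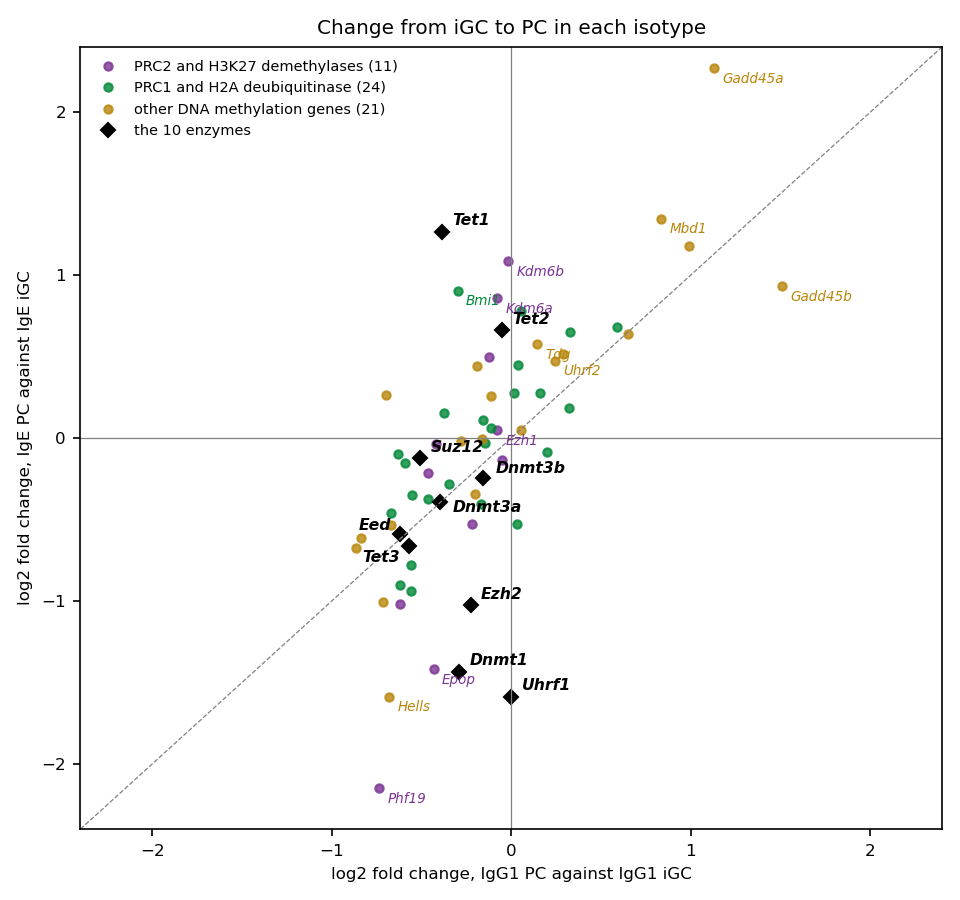
Fitted log2 fold change from iGC to PC in IgG1 (horizontal axis) and in IgE (vertical axis) for the 10 enzymes and for genes of 3 pathway lists; the dashed line marks equal change, and the 2 axes share no libraries. Uhrf1, Dnmt1 and Ezh2 lie below the line near the vertical axis, Gadd45a, Bmi1, Kdm6a, Kdm6b, Tet1 and Tet2 lie above it, and under total-count scaling the median of all genes lies at -0.55 on the vertical and -0.22 on the horizontal axis.

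Genes that follow the enzymes across the libraries were listed by Pearson correlation of log2 CPM over all 15, as a description, and the points share their groups. The genes most like Uhrf1 were the origin recognition gene Orc6 (r = 0.994), the replicative helicase gene Mcm4 (0.991) and Igsf3 (0.986). Mns1 led for both Ezh2 (0.983) and Dnmt1 (0.984), followed by Wdr76 and Cdk5rap2 for Ezh2 and by Xndc1 and the replication protein gene Rpa1 for Dnmt1. Ezh2 and Dnmt1 correlated with each other at 0.975, and with Uhrf1 at 0.790 and 0.715. Dnmt3a was nearest to Srgap2 (0.990), Tet3 to Elf4 (0.983), Tet2 to Tnrc6a (0.960), Suz12 to Pds5a (0.973) and Eed to Mtpap (0.978). Dnmt3a, Dnmt3b, Tet3 and Eed formed a group with coefficients of 0.754 to 0.923 among themselves. Tet2 and Tet1 correlated at 0.841 with each other and at -0.595 and -0.614 with Ezh2.

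Among 15 proliferation genes, 12 were called lower and 0 higher in IgE PC than in IgG1 PC, beside 30.7% and 27.4% of all genes. Their median log2 difference was -0.87, and the same count was lower without IgG1 PC replicate 1. In that fit 9356 of 16090 genes were called, 4556 of them higher. The replication genes Mcm5 and Pcna differed by -1.26 (SE 0.06) and -0.90 (SE 0.06). Mki67, present throughout the dividing state, held 1422 ± 47.4 CPM in IgE PC, beside 1307 ± 143 in IgG1 PC, and its difference of 0.12 (SE 0.10) was not called. From iGC to PC, 11 of the 15 were called lower and 2 higher in IgE, and 0 lower and 10 higher in IgG1, where Ezh2 and Dnmt1 fell. Under total-count scaling the IgG1 counts were 2 lower and 3 higher. Of all genes under TMM scaling, 33.6% were called lower and 30.5% higher in IgE, and 29% lower and 30.1% higher in IgG1. The part of the proliferation differences in the results for Uhrf1, Dnmt1 and Ezh2 was not tested.

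Fibroblast genes also differed between the plasma cells. The 11 fibroblast markers summed to 26.3 to 41.3 CPM in IgE PC, 79.1 to 211 in IgG1 PC, 43.2 to 76.0 in IgG1 iGC, 62.1 to 84.9 in IgE iGC and 255 to 388 at D6. Of 10 tested, 9 were called lower in IgE PC than in IgG1 PC, beside 30.7% of all genes. No marker was at 0 in all libraries, and Lum was at most 0.0772 CPM in any library. The part of fibroblast RNA in the enzyme results was not tested.

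Several gene lists known to depend on these enzymes were examined. Of 39 Hox genes, classical Polycomb targets, 22 were tested. Of these, 16 were called lower and 0 higher in IgE PC than in IgG1 PC, beside 30.7% and 27.4% of all genes. Without IgG1 PC replicate 1, 11 of the Hox genes were called lower and 0 higher, beside 9356 of 16090 genes called, 4556 of them higher. Their summed level moved with the fibroblast sum, at 4.60 to 6.82 CPM in IgE PC, 8.97 to 20.9 in IgG1 PC and 23.5 to 34.5 at D6, and the highest of them, Hoxb9, reached a group mean of 8.08 CPM at D6. The part of fibroblast RNA in the Hox counts was not tested. Of 15 germline genes known to be silenced by promoter DNA methylation in somatic cells, 4 were at 0 in all libraries and 3 were tested, and 1 reached 1 CPM in a group, Zpbp2, at 5.95 CPM in IgE PC. Of 5 genes known to be repressed by EZH2 in germinal centre B cells, 3 were called higher in IgE PC than in IgG1 PC: the cell cycle inhibitors Cdkn1a (log2 0.79, SE 0.13) and Cdkn1b (0.66, SE 0.07), and Irf4 (0.74, SE 0.07). Prdm1, at 225 ± 12.4 and 198 ± 14.2 CPM, and Cdkn2a, at group means of 0.720 to 1.91 CPM, were not called. Irf4 and Prdm1 also belong to the plasma cell markers above. Of all genes, 27.4% were called higher in this comparison. From iGC to PC, 4 of the 5 were called higher and 1 lower in IgE, and 4 higher and 0 lower in IgG1. Of all genes, 30.5% were called higher in IgE and 30.1% in IgG1. Cdkn1a was lower than at D6 in both plasma cell groups, by 1.96 in IgE PC and 2.75 in IgG1 PC on the log2 scale. The part of Ezh2 in these values was not tested.

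**Figure D5:**
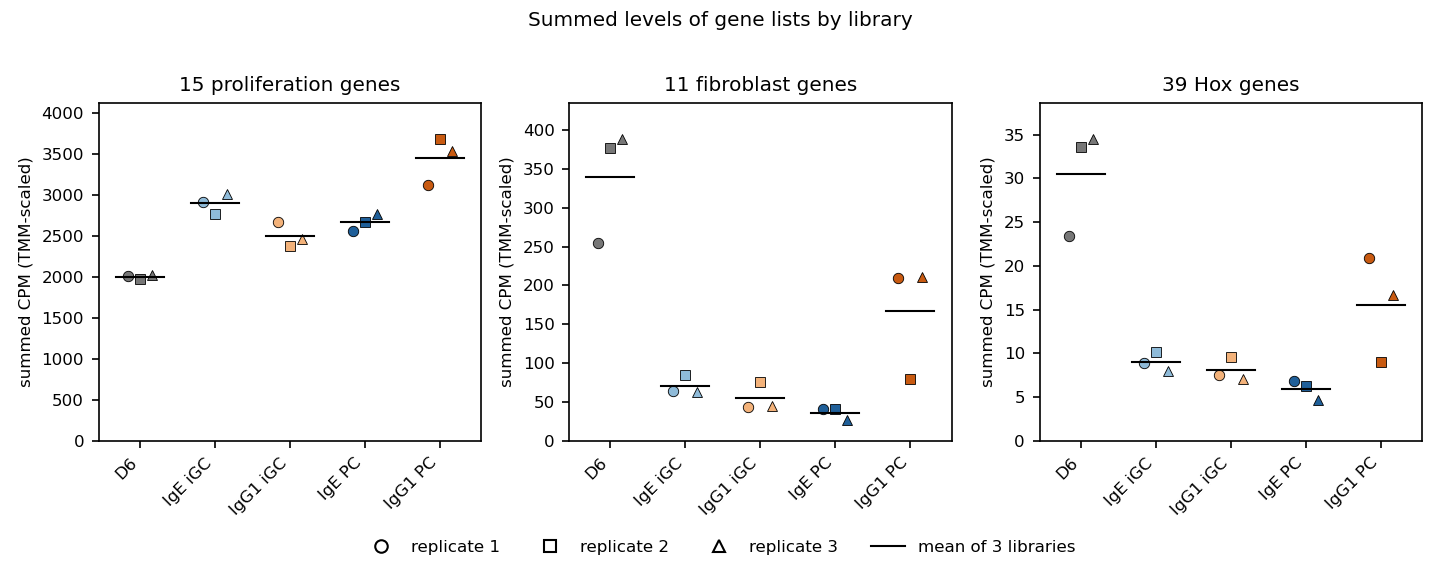
Summed level (vertical axes, TMM-scaled CPM, linear from 0) of 15 proliferation genes, 11 fibroblast genes and 39 Hox genes in every library of the 5 groups (horizontal axis); points are libraries, shaped by replicate number, and bars are means of 3. The proliferation sum is highest in IgG1 PC, at 3122 to 3675 CPM, and the fibroblast and Hox sums are highest at D6 and higher in IgG1 PC than in IgE PC.

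The genes annotated over or against the 10 had at most 24 counts in any library, and the strand setting used in counting is not given in the sources used here. Expected counts of 8 of the 10 genes were whole numbers in every library, and those of Uhrf1 and Dnmt3b departed from whole numbers by at most 0.0360%.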

How the data were processed

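RNA from 15 mouse B cell culture libraries was sequenced as strand-specific single-end reads, per the labels' protocols. Per the submitters' processing notes, which give no roles or order, the tools were cutadapt 1.9.1, STAR 2.5.2a, RSEM 1.3.0 and DESeq2 1.12.3, with GRCm38. The authors deposited expected counts, estimates that can be fractional, and TPM values, which are scaled for transcript length. The 10 genes, the pathway lists and the tests were chosen with earlier results of these data known.

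Expected counts were rounded and fitted with edgeR 4.0.16 (R 4.3.3): TMM scaling, filterByExpr (minimum count 10, total 15), quasi-likelihood tests over all 15 libraries, and Benjamini-Hochberg adjustment over 15692 genes. All groups entered 1 fit to share the estimate of spread. The SE is the absolute log2 fold change divided by the square root of F and is approximate. TPM ratios used a pseudocount of 0.1 and an exact two-sided permutation test. Total counts ranged from 17740876 to 54067953 per library. The fit was tested on simulated data. Alternatives were DESeq2 1.42.0, other scalings, no filter, only the groups compared, a replicate block and leaving out each library.

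The 10 genes were always named. From the pathway lists the rule named, in each comparison, the 3 called genes with the largest rise and the 3 with the largest fall whose mean in either group was at least 5 CPM, and Ezh1, Kdm6a, Kdm6b, Uhrf2, Tdg and Bmi1 always. A gene of the PRC1 list that the rule names is not reported here. Likeness listed the 3 genes of highest Pearson r among tested genes with a mean of at least 10 CPM, leaving out immunoglobulin, predicted and mitochondrial genes. Mki67, Mcm5 and Pcna were named from the proliferation list. Lum, Hoxb9, Zpbp2 and the EZH2-repressed genes were named after their values were seen. The lists were other PRC2 genes, PRC1, other DNA methylation genes, proliferation, Hox, germline and EZH2-repressed genes, and markers of B, germinal centre, plasma, fibroblast, T and myeloid cells. The T cell markers summed to at most 45.8 CPM and the myeloid markers to at most 8.58 CPM in any library. The 7 B cell markers summed to 9416 to 9793 CPM in iGC libraries.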

Additional observations from a re-analysis of the deposited data

Results flagged for a closer look

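By edgeR's interaction test with an adjusted p under 0.05, IgE and IgG1 cells differed in how expression changed from iGC to PC for 5 of the 10 enzymes and for 9 named pathway genes. Of all genes tested, 42.9% were called in this test. Several of the 9 were named by a rule that takes called genes, so their number is not a result. On the whole lists 4 of 11 PRC2 genes were called up and 4 down, 7 and 3 of 25 PRC1 genes, and 7 and 2 of 21 DNA methylation genes. Values are the log2 change in IgE minus that in IgG1. The difference was -1.59 for Uhrf1, -1.14 for Dnmt1, -0.80 for Ezh2, 1.65 for Tet1 and 0.71 for Tet2. Among PRC2 genes and demethylases it was -1.41 for Phf19, -0.99 for Epop, 0.94 for Kdm6a and 1.10 for Kdm6b. In PRC1 it was 1.20 for Bmi1. Among DNA methylation genes it was -0.91 for Hells, 1.14 for Gadd45a, 0.43 for Tdg and 0.23 for Uhrf2. Under total-count scaling Uhrf2 was at -0.00 and Tdg at 0.19 (adjusted p 0.0680). Values of single genes were not screened for an outlying library, since each group holds 3.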

How the results depend on the processing

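Of 1140 recomputed gene results, 1046 kept their side of the threshold and, where called, their direction. Another 67 lost and 24 gained a call, and 3 reversed with a call in either fit. Among results called in neither fit, 21 had opposite signs, 5 of them under total-count scaling, with alternative values of at most 0.24 in size. The reversals were Dnmt3a in the interaction, -0.16 without IgG1 PC replicate 1 (up to 0.098 when another library was left out), and, under total-count scaling, Suz12 in IgE PC against D6, -0.40, and Ezh2 in IgG1 PC against D6, -0.080. The Ezh2 to Ezh1 ratio in IgG1 PC against IgG1 iGC reversed to -0.16 with CPM in place of TPM and to -0.017 without IgG1 PC replicate 2, with up to 0.081 when another library was left out. Genes called between IgE iGC and IgG1 iGC, 607, were 922 by DESeq2, 1503 with only the groups compared, and 323 to 403 when a library was left out. With only the groups compared, 1 of the 10 enzymes, Dnmt3a, was called there. In IgG1 PC against IgG1 iGC 3 were then called in place of 6, beside 7483 of 14381 genes in place of 9273 of 15692. The cause of these changes was not tested. Calls of Uhrf1, Dnmt1, Ezh2 and Tet1 between the plasma cells, in IgE from iGC to PC and in the interaction held in all alternatives run. Tet1, at 18 to 89 counts, is limited by depth.

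No sign of pairing by replicate number was seen: same-numbered libraries deviated with a mean correlation of -0.0146 (-0.195 to 0.0908). These values cannot show whether same-numbered libraries came from 1 culture, and the labels do not say. With the replicate block, 88 of 90 gene results were unchanged, and 2 lost their call: Tet2 in the interaction, 0.72 (adjusted p 0.0550), and Suz12 in IgE iGC against D6, 0.26 (adjusted p 0.0502).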
